A study of Mus musculus with 2 samples.

Results

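The proteasome genes of mouse were described in ribosome-bound RNA from the dentate gyrus. Members were all gene lines whose symbol begins with Psma, Psmb, Psmc, Psmd, Psme, Psmf or Psmg followed by a digit, and 50 of 32531 lines matched. They comprised 14 constitutive and 5 inducible or tissue-specific subunits of the core particle, 17 subunits of the regulatory particle, 4 activator subunits and a copy of one of them, 1 inhibitor, 7 assembly chaperones, and Psmc3ip, which matched by name but encodes a partner of meiotic recombinases and no subunit. The rule used names and no measured value.

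The study holds 1 group of 2 libraries, replicate 1 and replicate 2, both from mice that were adult and untreated and belonged to Lypd1-TRAP, line OI82. In translating ribosome affinity purification (TRAP), ribosomes of chosen cells carry the ribosomal protein Rpl10a fused to EGFP, and their RNA is pulled down with antibodies to EGFP. Both libraries carry the Lypd1-EGFP/Rpl10a transgene and both are pull-downs. OI82 is 1 line, and the labels give neither the sex and exact age of the mice nor whether a library came from 1 animal or a pool. The spread between the libraries may therefore be technical. An input or untagged library was not analysed here, so each value is a level within the purified RNA and not an enrichment over tissue.

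The proteasome is the protease that degrades proteins marked with ubiquitin. Its barrel-shaped core particle is built from rings of alpha subunits, which gate the entry, and rings of beta subunits, of which Psmb5, Psmb6 and Psmb7 carry the cutting sites. A regulatory particle sits on the ends of the barrel. Its lid removes ubiquitin and its base holds a ring of ATPases that unfolds the substrate and threads it into the core. In neurons the proteasome is known for the turnover of synaptic proteins, and in immune cells interferon exchanges the cutting subunits for Psmb8, Psmb9 and Psmb10.

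Gene lines summed to 31309643 counts in replicate 1 and to 32711412 in replicate 2. A level is the count of a gene scaled to a library total of 1000000 gene counts (CPM), and levels of different genes are compared as CPM per kilobase of exon, with the shares within pairs also given as shares of counts. With 2 libraries, the value of each is given in place of an SD. The 6 granule cell markers, Prox1 and Calb1 among them, were all detected and summed to 3506 CPM in replicate 1 and 3506 CPM in replicate 2. Of the 8 microglia markers none reached a CPM of 1 in both libraries. They summed to 2.65 CPM in replicate 1 and 2.38 CPM in replicate 2, and C1qa and C1qb were at 0 in both. The 3 GABAergic markers summed to 70.4 CPM in replicate 1 and 119 CPM in replicate 2, and the 4 oligodendrocyte markers summed to 163 CPM in replicate 1 and 119 CPM in replicate 2. The 4 astrocyte markers summed to 29.1 CPM in replicate 1 and 31.1 CPM in replicate 2, and the 4 endothelial markers to 16.3 CPM in replicate 1 and 15.8 CPM in replicate 2.

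Among the members, every constitutive subunit of the core particle and every subunit of the regulatory particle was present in the ribosome-bound RNA. Genes were called detected where each library gave a CPM of 1 or more, and 45 of the 50 members were detected, against 38.1% of all gene lines. The 5 members that were not detected were Psmb8, Psmb9, Psma8, Psmb11 and Psme2b. Members took 0.364% of gene counts in replicate 1 and 0.409% in replicate 2. Their median level was 72.0 CPM in replicate 1 and 73.4 CPM in replicate 2, and 70.2 CPM when the 2 values of each gene were averaged first. Per kilobase, the members' median was 39.6 CPM, against 4.22 CPM for the 15059 genes with a count in both libraries and a known exon length and 7.17 CPM for detected genes. RNA from a dissected region was pooled over cells, so fewer cells of a type and less RNA per cell cannot be told apart.

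**Figure D1:**
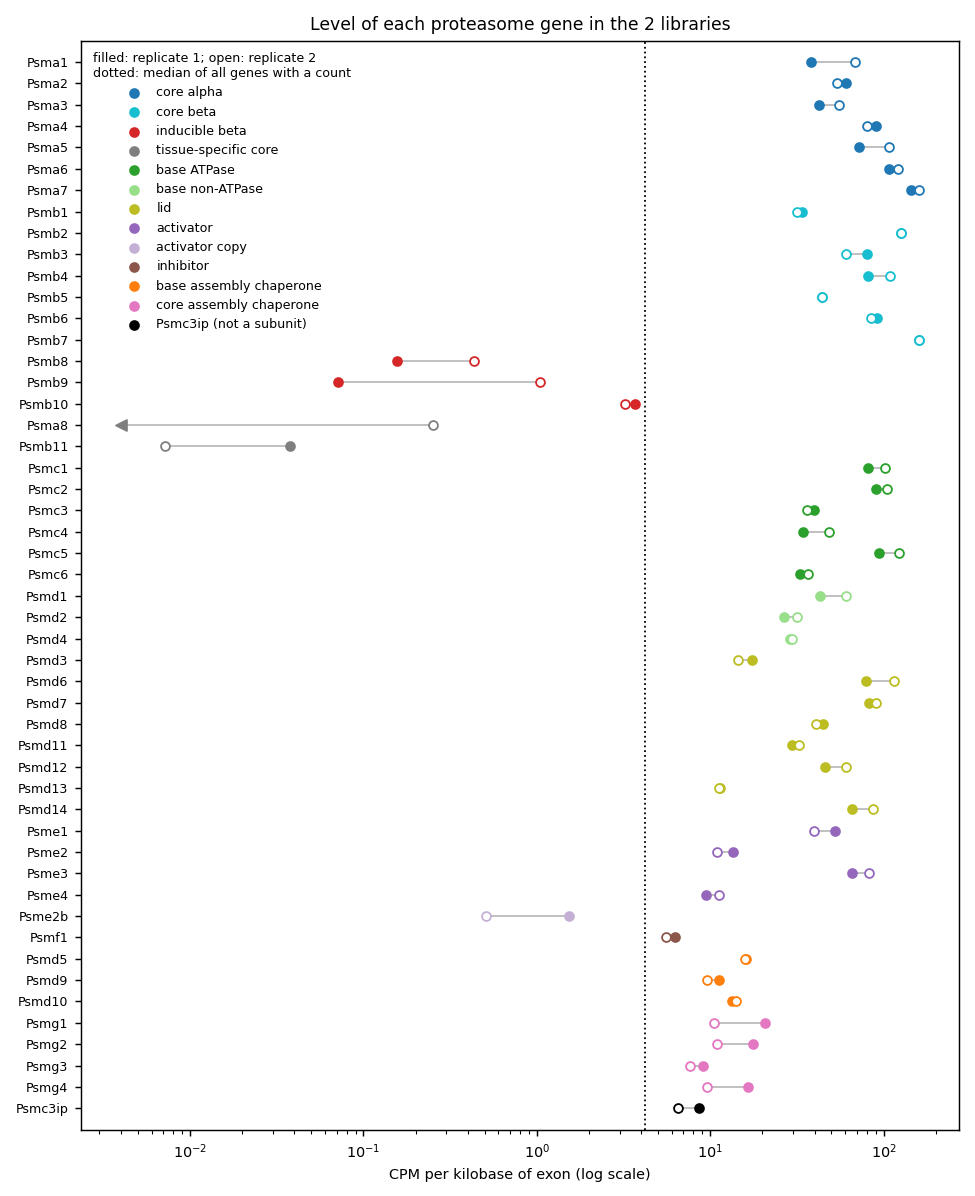
Level of each of the 50 members in CPM per kilobase of exon on a log scale, with filled points for replicate 1, open points for replicate 2 and colour for the subunit class. The arrow marks Psma8, which had 0 counts in replicate 1. Constitutive core and regulatory particle subunits lie to the right of the dotted median of all genes (4.22 CPM per kilobase), while the inducible subunits, Psma8, Psmb11 and Psme2b lie to its left. Where only an open point shows, as for Psmb2, Psmb5 and Psmb7, the libraries coincide.

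The alpha subunits of the core were among the most abundant members. Their median was 72.0 CPM per kilobase in replicate 1 and 80.8 in replicate 2. Psma7, which was the highest, had 144 CPM per kilobase in replicate 1 and 161 in replicate 2, while Psma3, the lowest by mean, had 42.3 in replicate 1 and 55.4 in replicate 2. Psma1, the constitutive subunit with the largest ratio between the libraries, had 38.3 CPM per kilobase in replicate 1 and 68.4 in replicate 2. Psma2, Psma4, Psma5 and Psma6 lay between 53.7 and 122 CPM per kilobase in both libraries. With exons of the basic annotation Psma7 therefore stood above every other alpha subunit in both libraries. In the full annotation Psma7 has 3071 bases of exon and Psma6 1234, and with these lengths Psma6 would stand above Psma7. The order of the 7 had a Spearman rho of 0.82 between the libraries (7 genes that share library and depth, as a description).

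The constitutive beta subunits had nearly the same median, 81.0 CPM per kilobase in replicate 1 and 84.2 in replicate 2. Psmb7, which carries the trypsin-like cutting site, was the most abundant member per kilobase by mean, above Psma7, at 159.9 CPM per kilobase in replicate 1 and 159 in replicate 2. Psmb6, which carries the caspase-like site, had 91.3 in replicate 1 and 84.2 in replicate 2. Psmb5, which carries the chymotrypsin-like site, had 44.1 in replicate 1 and 44.3 in replicate 2. With exons of the basic annotation the cutting subunits thus kept the order Psmb7, Psmb6, Psmb5 in both libraries. The order depends on exon length. The full annotation gives Psmb7 3421 and Psmb6 1872 bases, against 1160 and 798 in the basic set, and Psmb5 has 899 in both. With the full lengths Psmb5 would stand above Psmb6, and Psmb7 below Psma6 and Psma7. Of the 50-base stretches of the longest Psmb5 transcript, 50% also stand in other annotated genes, so reads of Psmb5 can have been lost to the class of multiple alignments, and how many were lost was not tested. Of the non-cutting subunits, Psmb2 had 126 CPM per kilobase in both libraries, Psmb1 was lowest with 33.9 in replicate 1 and 31.5 in replicate 2, and Psmb3 and Psmb4 lay between 61.1 and 108.

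Core subunits enter each particle in equal number, but their messages did not have equal levels. Over the 14 constitutive core subunits the coefficient of variation of CPM per kilobase was 47.4% in replicate 1 and 45.9% in replicate 2. The highest subunit exceeded the lowest 4.72 times in replicate 1 and 5.11 times in replicate 2. The lowest was Psmb1, with 3427 bases of exon over its transcripts and 1970 in its longest transcript. With longest transcripts Psmb1 would not be the lowest, and the range would be narrower. The order of the core subunits held between the libraries with a Spearman rho of 0.89 (14 genes). Exon length sets part of this scale. With exons of the full annotation in place of the basic set, the median of the alpha subunits was 45.4 CPM per kilobase and that of the beta subunits 44.2, against 85.3 and 87.7 with the basic set.

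The inducible cutting subunits made up a small part of each catalytic pair. Psmb8 replaces Psmb5 in the immunoproteasome, and of the counts of this pair it took 8 of 1250 (0.640%, exact 95% interval 0.277 to 1.26) in replicate 1 and 23 of 1326 (1.73%, 1.10 to 2.59) in replicate 2. Psmb9, which replaces Psmb6, took 3 of 2284 counts (0.131%, 0.0271 to 0.383) in replicate 1 and 46 of 2243 (2.05%, 1.51 to 2.73) in replicate 2. Psmb10, which replaces Psmb7, took 152 of 5961 counts (2.55%, 2.16 to 2.98) in replicate 1 and 139 of 6189 (2.25%, 1.89 to 2.65) in replicate 2. Only Psmb10 was detected in both libraries. The intervals of the libraries overlapped for Psmb10 and, narrowly, for Psmb8, and did not overlap for Psmb9. These intervals and floors cover counting error only.

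Corrected for exon length, Psmb8 was 0.354% of its pair in replicate 1 and 0.965% in replicate 2, Psmb9 was 0.0776% in replicate 1 and 1.22% in replicate 2, and Psmb10 was 2.26% in replicate 1 and 1.99% in replicate 2. Psmb8 and Psmb9 lie close to each other on chromosome 17, where Psmb9 (chr17:34181987-34187764, minus strand, GRCm38) shares exon sequence with the antigen transporter gene Tap1 on the opposite strand. Tap1 had 47 counts in replicate 1 and 37 in replicate 2 (log2 ratio 0.30, counting interval -0.34 to 0.98), and the part of its reads in the counts of Psmb9 was not tested. Psmb8 shares exon sequence with Gm20496 on the opposite strand. The strand setting of the counting is not given in the sources used here, and reads of such partners cannot be told apart without it. Microglia markers were near 0 in both libraries, with the sums given above, but so were Psmb8 (0.256 and 0.703 CPM) and Psmb9 (0.0958 and 1.41 CPM). Of these markers P2ry12 (11 counts in replicate 1 and 30 in replicate 2), Tmem119 and Ptprc were higher in replicate 2. Csf1r (33 and 20 counts), Cx3cr1 and C1qc were higher in replicate 1. The part of microglia in the counts of Psmb8 and Psmb9 was not tested.

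**Figure D2:**
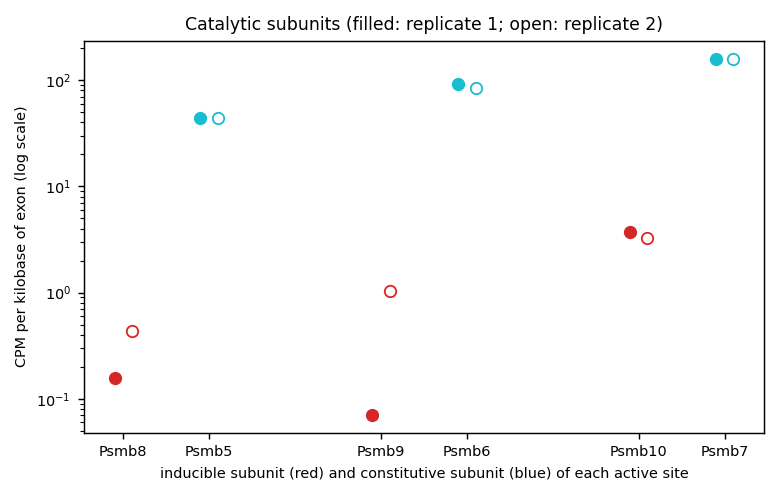
Level of each inducible cutting subunit (red) and, to its right, of the constitutive subunit it replaces (blue), in CPM per kilobase of exon on a log scale, with filled points for replicate 1 and open points for replicate 2. Every inducible subunit lies below its counterpart in both libraries, Psmb10 at 3.70 and 3.24 against Psmb7 at 159.9 and 159, and Psmb9 shows the widest gap between the libraries (0.0709 in replicate 1 and 1.04 in replicate 2).

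Listed were 8 genes through which interferon is known to act on these subunits or which it raises with them. Of these 5 were detected, against 38.1% of all gene lines. The receptor subunit Ifngr2 had 64.8 CPM in replicate 1 and 44.6 in replicate 2. B2m, which pairs with the heavy chain of class I antigen-presenting molecules, had 25.4 CPM in replicate 1 and 23.6 in replicate 2. Irf1, a factor that acts on Psmb9 and Tap1, had 2.20 CPM in both libraries. Ifngr1, the other receptor subunit, had 3.55 CPM in replicate 1 and 0.611 in replicate 2. The class I transactivator Nlrc5 had 1.09 CPM in replicate 1 and 0.306 in replicate 2, and Tap2 had 0.415 in replicate 1 and 0.306 in replicate 2. Ifngr1 and Nlrc5 were thus higher in replicate 1, while Psmb8 and Psmb9 were higher in replicate 2. The part of interferon in the counts of Psmb8 and Psmb9 was not tested.

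The tissue-specific core subunits were under a CPM of 1 in both libraries. Where no read was counted, up to 3 counts remain possible, equal to 0.0958 CPM in replicate 1 and 0.0917 CPM in replicate 2. Psma8, the alpha subunit of the testis, had 0 counts in replicate 1 and 14 in replicate 2, where its level was 0.428 CPM. Of the joint counts of Psma8 and Psma7 it took 0 of 5317 in replicate 1 (exact 95% interval up to 0.0694%, and 0.0564% at that floor) and 14 of 6233 in replicate 2 (0.225%, 0.123 to 0.377). Psmb11, the cutting subunit of the thymus, had 5 counts in replicate 1 and 1 in replicate 2. Psma8 was thus above that floor in replicate 2 alone, and Psmb11 in replicate 1 alone.

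The regulatory particle was lower per kilobase than the core it serves. The median of its 17 subunits was 0.533 times that of the 14 core subunits in replicate 1 and 0.588 times in replicate 2, or 0.494 times when the values of each gene were averaged first. Without division by exon length, the median CPM was 110 for the ATPases, 86.1 for the other base subunits and 106 for the lid. By that measure it was 132 for alpha and 108 for beta subunits, so the gap depends in part on exon length. With exons of the basic annotation the ATPases of the base, Psmc1 to Psmc6, were closest to the core. Their median was 60.4 CPM per kilobase in replicate 1 and 75.3 in replicate 2. Psmc5 was highest with 94.5 in replicate 1 and 122 in replicate 2, and Psmc6 was lowest by mean with 33.1 in replicate 1 and 36.8 in replicate 2. Psmc1 and Psmc2 lay between 81.3 and 104 CPM per kilobase, and Psmc3 and Psmc4 between 34.3 and 48.5. With exons of the basic annotation the 6 ATPases thus fell into a higher and a lower set of 3 in both libraries, although they form 1 ring with a place for each. This split depends on exon length. Psmc2 has 5031 bases of exon in the full annotation, against 1785 in the basic set. With the full lengths it would stand near Psmc3 and Psmc4, well below Psmc1 and Psmc5.

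The other base subunits were lower. Psmd1, a large scaffold subunit, had 42.9 CPM per kilobase in replicate 1 and 60.4 in replicate 2. Psmd2, the scaffold that binds shuttle factors, had 26.6 in replicate 1 and 31.6 in replicate 2. Psmd4, a ubiquitin receptor, had 28.8 in replicate 1 and 29.6 in replicate 2. Adrm1, the other ubiquitin receptor of the base, does not carry the Psm name and had 18.5 CPM per kilobase in replicate 1 and 18.3 in replicate 2. Both receptors were therefore below the median of the ATPases and differed little between the libraries.

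Among the 8 lid subunits the median was 45.3 CPM per kilobase in replicate 1 and 50.8 in replicate 2. Psmd6 was highest by mean with 79.6 in replicate 1 and 115 in replicate 2, and Psmd13 was lowest with 11.4 in replicate 1 and 11.3 in replicate 2. Psmd14, the enzyme that cuts ubiquitin chains off the substrate, had 65.6 in replicate 1 and 87.3 in replicate 2, and its partner Psmd7 had 82.5 in replicate 1 and 90.2 in replicate 2. This enzyme pair stood above the lid median in both libraries. Psmd3, Psmd8, Psmd11 and Psmd12 lay between 14.5 and 60.9. Shfm1, the older symbol of the small lid subunit Sem1, had 13.6 in replicate 1 and 9.74 in replicate 2. With exons of the full annotation the medians were 32.1 for the ATPases, against 66.6 with the basic set, and 36.3 for the lid, against 48.1.

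Activators are caps that open the core without ubiquitin. Psme3, the nuclear activator, was the highest with 65.8 CPM per kilobase in replicate 1 and 81.9 in replicate 2. Psme1 and Psme2 form the interferon-inducible cap together, and Psme1 had 52.6 in replicate 1 and 39.8 in replicate 2, while Psme2 had 13.5 in replicate 1 and 11.0 in replicate 2. Psme4, the large activator also known for acetylated histones in testis, was lowest by mean with 9.50 in replicate 1 and 11.3 in replicate 2. Psme2 was lower than its partner in both libraries, and 59.3% of the 50-base stretches of its transcript also stand in other genes, Psme2b among them. Psme2b had 40 counts in replicate 1 and 14 in replicate 2 and shares 69.3% of its stretches, so the split of reads between Psme2 and Psme2b is uncertain. The activator median was 29.2 CPM per kilobase, 46.2 without members that share over 20% of their stretches, and 15.6 with exons of the full annotation. Psmf1, an inhibitor of the core, was at 6.23 in replicate 1 and 5.59 in replicate 2. It was the lowest of the detected members other than the inducible Psmb10, which had 3.70 in replicate 1 and 3.24 in replicate 2.

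Assembly chaperones leave or are consumed when the particle is complete. The medians of both chaperone classes were lower than those of the core, base and lid classes in both libraries, although single chaperones stood above the lowest lid subunit, Psmd13. The base chaperones Psmd5, Psmd9 and Psmd10 had a median of 13.3 CPM per kilobase in replicate 1 and 14.0 in replicate 2. Psmd5 was highest of them with 16.2 in replicate 1 and 15.8 in replicate 2, and Psmd9 was lowest with 11.2 in replicate 1 and 9.63 in replicate 2. The core chaperones Psmg1 to Psmg4, which help the alpha ring to form, had a median of 17.1 in replicate 1 and 10.1 in replicate 2. Psmg1 was highest by mean with 20.6 in replicate 1 and 10.6 in replicate 2, and Psmg3 was lowest with 9.12 in replicate 1 and 7.69 in replicate 2. Pomp, the chaperone that is degraded by the finished core, was higher than these with 42.3 in replicate 1 and 38.7 in replicate 2. The remaining member, Psmc3ip, had 8.66 in replicate 1 and 6.51 in replicate 2.

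The libraries differed from each other in the proteasome genes about as much as in all genes. Log2 ratios of replicate 1 over replicate 2 were formed from totals scaled by trimmed mean of M-values (TMM) for the 41 members whose mean CPM reached 10. Their median was -0.16, against -0.03 over the 8442 genes at that level. Of the members 14 lay above 0 and 27 below it, while 52.8% of all such genes lay below 0. The median size of the log2 ratio was 0.26 in members and 0.27 in all genes, and the biological coefficient of variation was 18.5% in members and 21.7% in all genes. Levels correlated between the libraries over the 41 members with a Pearson r of 0.97 and a Spearman rho of 0.96, as a description of genes that share 2 libraries. Chi-square over degrees of freedom was 55.01 for the members' counts, far beyond the value of sampling noise alone, and the libraries were kept as separate replicates. For 31 of the 41 members the counting interval of the ratio excluded 0, against 79% of all such genes, so the share in members was near the background.

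**Figure D3:**
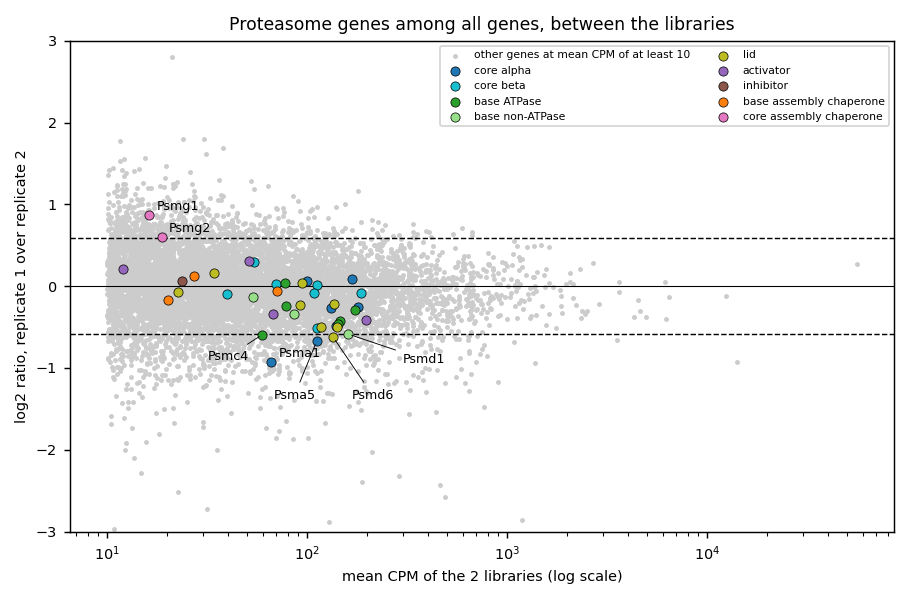
Log2 ratio of replicate 1 over replicate 2 against mean CPM on a log scale, for all genes at a mean CPM of at least 10 in grey and the 41 members in colours by class; 7 genes lie outside the plotted range of 3 in either direction. Dashed lines mark 1.5-fold, and the 7 members past them are named, Psmg1 and Psmg2 above and Psma1, Psma5, Psmd6, Psmc4 and Psmd1 below.

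Few members passed 1.5-fold between the libraries. Higher in replicate 1 by that measure were 2 of 41 members (background 7.12% of all genes), both of them core assembly chaperones. Psmg1 had 21.5 CPM in replicate 1 and 11.0 in replicate 2 (log2 ratio 0.87), and its partner Psmg2 had 23.1 in replicate 1 and 14.3 in replicate 2 (log2 ratio 0.60). These proteins work as a pair, and the other pair stood below the mean CPM of 10. In that pair Psmg4 had 9.17 CPM in replicate 1 and 5.35 in replicate 2, and Psmg3 had 8.05 in replicate 1 and 6.79 in replicate 2. All 4 core chaperones were thus higher in replicate 1, although the counting interval of Psmg3 included 0. Pomp had 213 CPM in replicate 1 and 195 in replicate 2, with a counting interval of its log2 ratio that also included 0.

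Higher in replicate 2 past 1.5-fold were 5 of 41 members (background 9.44%). Psma1 had 47.5 CPM in replicate 1 and 84.8 in replicate 2 (log2 ratio -0.93), and Psma5 had 89.3 in replicate 1 and 134 in replicate 2 (-0.67). Psmd6 had 110.4 CPM in replicate 1 and 160.0 in replicate 2 (-0.63). Psmc4 had 49.3 CPM in replicate 1 and 69.8 in replicate 2 (-0.59), and Psmd1 had 133 in replicate 1 and 188 in replicate 2 (-0.59). No member passed 2-fold (background 3.19%). In both directions the share of members past 1.5-fold was near the background, so the counts show nothing particular to the proteasome. With library totals alone in place of TMM, 1 member was past 1.5-fold higher in replicate 2, namely Psma1.

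The sides of the ratio are given by class, and 52.8% of all genes at a mean CPM of at least 10 lay below 0. The classes hold 3 to 8 genes each, too few to tell a class pattern from that share. By the TMM-scaled ratio all 3 base subunits without ATPase activity were lower in replicate 1, as were 5 of 6 ATPases, 6 of 8 lid subunits and 5 of 7 alpha subunits. Of the beta subunits 4 of 7 were lower in replicate 1 by that ratio. These sides depend on the scaling. By CPM from library totals Psmb2 had 108.465 in replicate 1 and 108.25 in replicate 2, and Psmb7 had 185.5 and 185.0. The lid subunit Psmd13 had 22.6 and 22.4, so these subunits were not lower in replicate 1 by CPM. The class medians were -0.36 for the ATPases, -0.34 for the other base subunits, -0.22 for the lid, -0.26 for alpha and -0.09 for beta subunits. Ratios also moved with level in all genes. The median log2 ratio of all genes was 0.07 at a mean CPM of 5 to 25, -0.04 at 25 to 100 and -0.10 at 100 or more, and that of members was 0.21, -0.06 and -0.42 in the same ranges. Of the GABAergic markers, Gad1 had 50.02 CPM in replicate 1 and 75.6 in replicate 2, Gad2 had 19.7 in replicate 1 and 42.8 in replicate 2, and Slc32a1 had 0.703 in replicate 1 and 0.367 in replicate 2. The summed oligodendrocyte markers were higher in replicate 1, as given above. The part of these cell types in the members' ratios was not tested.

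**Figure D4:**
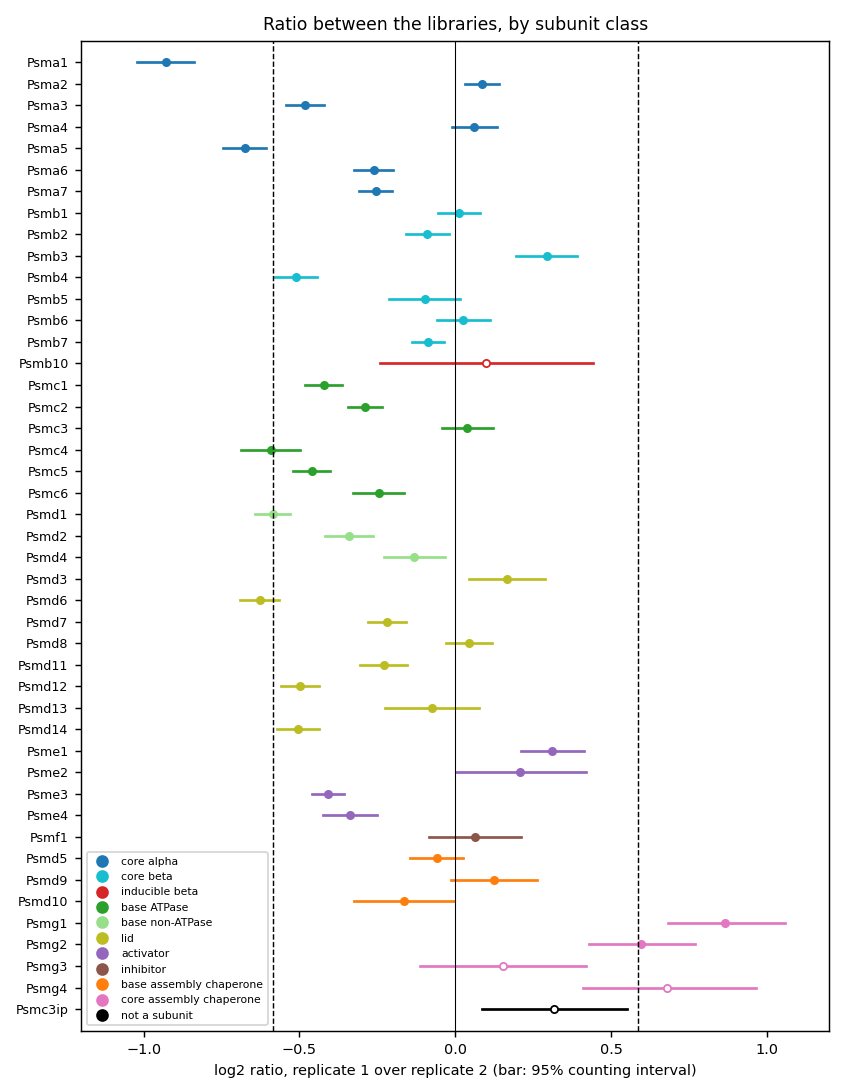
Log2 ratio of replicate 1 over replicate 2 for the 41 members whose mean CPM reached 10 (filled) and for 4 named members under it (open), with bars for the 95% counting interval and dashed lines at 1.5-fold. ATPases and other base subunits lie mostly left of 0, with Psmc3 the exception among 9, and the core chaperones Psmg1 to Psmg4 lie right of it.

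The ubiquitin-proteasome genes outside the Psm names were mostly detected too. Of 48 listed genes 47 were found and 42 were detected, against 38.1% of all gene lines. Among the highest per kilobase was Rps27a, which encodes ubiquitin fused to a ribosomal protein, with 70.4 CPM per kilobase in replicate 1 and 67.5 in replicate 2. The shuttle factor Rad23b, which carries ubiquitinated proteins to the proteasome, had 62.6 in replicate 1 and 72.0 in replicate 2. Ufd1l, a cofactor of the unfolding ATPase Vcp, had 52.2 in replicate 1 and 58.7 in replicate 2. These levels lay within the range of the subunits themselves.

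The proteasome carries deubiquitinases besides Psmd14. Usp14 had 82.8 CPM in replicate 1 and 93.4 in replicate 2, and Uchl5 had 45.2 in replicate 1 and 42.2 in replicate 2. Nfe2l1, the transcription factor that raises proteasome genes when the proteasome is inhibited, had 114 CPM in replicate 1 and 94.2 in replicate 2. Its relative Nfe2l2 had 3.29 in replicate 1 and 4.28 in replicate 2. Per kilobase, Nfe2l1 stood at 23.4 in replicate 1 and 19.4 in replicate 2, and Nfe2l2 at 1.33 in replicate 1 and 1.73 in replicate 2. Nfe2l1 was thus the higher factor in both libraries. Of the enzymes that mature Nfe2l1, the protease Ddi2 had 6.45 CPM in replicate 1 and 9.51 in replicate 2, and the glycanase Ngly1 had 29.99 in replicate 1 and 32.9 in replicate 2. Keap1, the adaptor that holds Nfe2l2 low, had 22.5 CPM in replicate 1 and 16.0 in replicate 2. Maff, a small partner of both factors, had 1 count in each library. Of the 35 listed genes at a mean CPM of at least 10, none was past 1.5-fold higher in replicate 1 (background 7.12% of all genes). Past it higher in replicate 2 were 6 of the 35 (background 9.44%). They included Uba6, Nploc4, Nsfl1c, Mafg and Bach1.

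Promoter windows from RefSeq (GRCm38.p6, 250 bases before to 50 after the start) were found for 42 of the 50 members. The core of the antioxidant response element through which Nfe2l1 acts was searched as TGACNNNGC on both strands. It stood in 6 of 42 members (14.3%), against 14.0% of all genes with a window and 17.03% of detected genes. The share in members was at the background. The same motif followed by A stood in 2 of 42 members (4.76%), against 3.45% of all genes. The matches of the cutting subunits are shown because these genes carry the proteasome's activity, with the match in capitals, at chr14:54618016-54618060 on the minus strand for Psmb5 and at chr11:70525330-70525374 on the plus strand for Psmb6.
Psmb5: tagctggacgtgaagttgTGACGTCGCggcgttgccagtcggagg
Psmb6: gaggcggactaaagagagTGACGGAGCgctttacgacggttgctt

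Other elements were counted after these data had been seen, so their shares are descriptions with no test. The core letters bound by ETS factors, CCGGAAG on either strand, stood in 15 of 42 members (35.7%), against 9.93% of all genes and 20.2% of detected genes. Within the members they stood in 9 of 14 regulatory particle genes (64.3%) and in 1 of 11 core genes (9.09%). The core letters bound by the factor YY1, ATGGCG on either strand, stood in 8 of the same 14 regulatory particle genes (57.1%) and in 2 of 11 core genes (18.2%), against 18.2% of detected genes. Its first letters are also those of a start codon, and 3 of its 10 matches in the regulatory particle lay after the start. Those of Psmc5 and Psmc6 read ATGGCG along the gene, while that of Psmd13 stood in reverse. In the core particle genes, a match of Psmb5 (position 5) and that of Psmb6 (position 41) also lay after the start. Either core stood in 13 of 14 regulatory particle genes (92.9%), against 34.0% of detected genes, and only Psmd14 had neither. The pair overlapped in no member. A match is a run of letters and no evidence that a factor binds.

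Of the other elements, the CCAAT box stood in 35.7% of members, against 41.1% of all genes and 43.2% of detected genes. The GC box GGGCGG stood in 54.8% of members, against 38.2% of all genes and 70.2% of detected genes, and GCATGCGC, the core of nuclear respiratory factor 1, stood in 7.14% of members, against 3.05% of all genes and 6.32% of detected genes. Against detected genes, the CCAAT and GC boxes were thus less frequent in members, and the last element stood in 3 of 42 members, a share near the background.

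**Figure D5:**
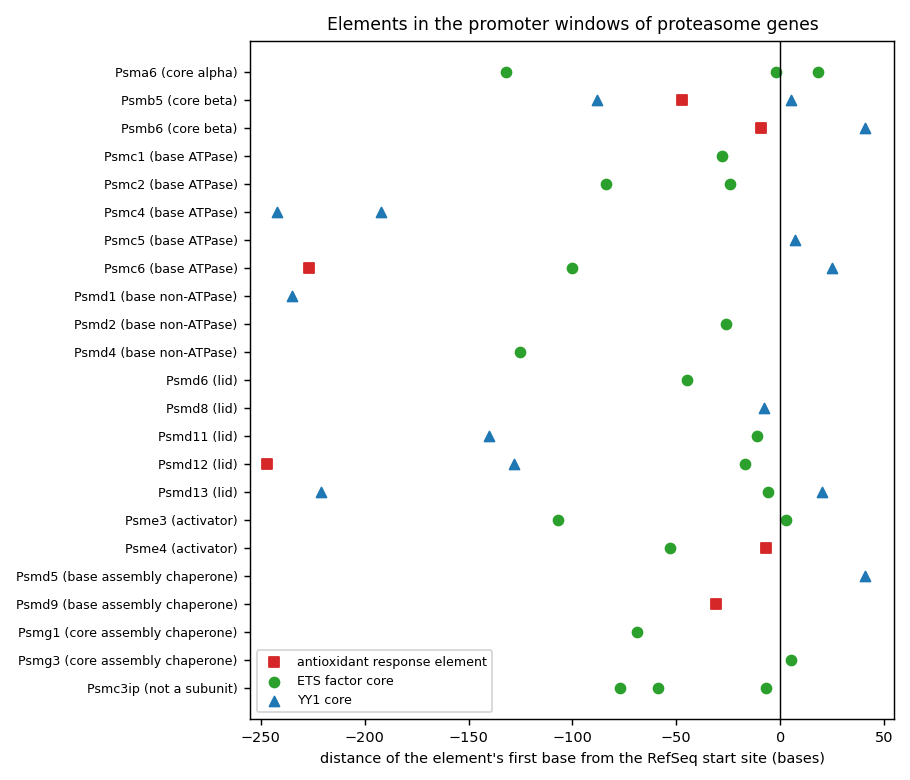
Distance of the antioxidant response element core, the ETS core and the YY1 core from the RefSeq start site, in bases, in every member window that holds at least 1 of them. In the regulatory particle genes that hold them, the ETS core lies between positions -125 and -6, and the YY1 core is spread from -242 to 25.

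The regulatory particle matches of the ETS core lay between positions -125 and -6 from the start. The same letters stood in 2 of 4 activator genes, Psme3 and Psme4, in the core chaperones Psmg1 and Psmg3, and in Psmc3ip. Those of the regulatory particle are printed as the class with the most matches, with the letters in capitals. Those in reverse read CTTCCGG. The stretches are chr12:100110159-100110195 (plus) for Psmc1, chr5:21786708-21786744 (plus) for Psmc2, chr14:45329709-45329745 (plus) for Psmc6, chr16:20651611-20651647 (plus) for Psmd2, chr3:95042718-95042754 (minus) for Psmd4, chr14:14120969-14121005 (minus) for Psmd6, chr11:80428589-80428625 (plus) for Psmd11, chr11:107479496-107479532 (plus) for Psmd12 and chr7:140882373-140882409 (plus) for Psmd13. Psmc2 holds a further match.
Psmc1: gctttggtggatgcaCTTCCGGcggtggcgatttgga
Psmc2: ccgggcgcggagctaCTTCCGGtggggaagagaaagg
Psmc6: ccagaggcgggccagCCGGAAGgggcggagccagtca
Psmd2: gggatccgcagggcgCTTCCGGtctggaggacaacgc
Psmd4: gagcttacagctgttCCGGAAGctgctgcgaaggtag
Psmd6: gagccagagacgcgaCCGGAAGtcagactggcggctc
Psmd11: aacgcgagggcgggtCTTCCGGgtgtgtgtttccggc
Psmd12: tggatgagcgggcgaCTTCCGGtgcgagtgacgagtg
Psmd13: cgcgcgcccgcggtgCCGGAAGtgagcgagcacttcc

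The windows of the cutting subunit Psmb5 and its inducible counterpart Psmb8 are printed with CG pairs in capitals, as a pair of genes for the same cutting site. Psmb5 (chr14:54617946-54618245, minus) holds 20 CG pairs, with an observed over expected ratio of 0.999, and Psmb8 (chr17:34197945-34198244, plus) holds 11, with a ratio of 0.523. The median ratio was 0.781 in detected members, against 0.763 in detected genes and 0.384 in all windows. The ratios of the 3 inducible genes lay between 0.192 and 0.5996, with Psmb10 lowest at 3 CG pairs although it was detected, and those of 4 constitutive beta windows between 0.544 and 0.999, so the ranges overlapped.
Psmb5: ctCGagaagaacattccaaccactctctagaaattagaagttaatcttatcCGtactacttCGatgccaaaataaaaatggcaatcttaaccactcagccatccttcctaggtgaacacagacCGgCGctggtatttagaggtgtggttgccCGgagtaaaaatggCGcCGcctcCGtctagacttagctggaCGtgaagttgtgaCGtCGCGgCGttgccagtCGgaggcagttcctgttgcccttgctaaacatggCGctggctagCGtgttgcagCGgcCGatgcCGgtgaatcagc
Psmb8: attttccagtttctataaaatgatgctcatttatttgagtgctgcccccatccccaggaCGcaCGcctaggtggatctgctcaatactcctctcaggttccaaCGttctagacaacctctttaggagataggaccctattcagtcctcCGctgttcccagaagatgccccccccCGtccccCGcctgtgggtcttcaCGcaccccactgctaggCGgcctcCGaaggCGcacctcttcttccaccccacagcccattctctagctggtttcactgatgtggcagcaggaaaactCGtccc

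The members lay on 16 chromosomes, 10 of them on chromosome 11, and were mostly scattered. Within 20 kilobases of each other lay 3 pairs, namely Psmb5 and Psmb11 on chromosome 14, Psme1 and Psme2 on chromosome 14, and Psmb8 and Psmb9 on chromosome 17. A head-to-head partner within 1 kilobase was annotated for 8 of 50 members (16.0%), against 6.79% of protein-coding genes. Among them Psmb1 shares its start region with Tbp, the gene of the TATA-binding protein, 137 bases away. Psmc5 does so with Ftsj3, a ribosome assembly gene, and Psma2 with the mitochondrial ribosomal protein gene Mrpl32, each 75 bases away. Partners were described by annotation alone, and their levels were not compared.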

How the data were processed

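The deposited values are raw counts per gene symbol, 1 table per library, as the authors deposited them. STAR 2.0.0e, HTSeq and genome build mm10 are named, with no roles, per the submitters' processing notes. Neither the annotation nor the strandedness is given in the sources used here. Tagged polysomes had been captured by anti-EGFP beads, per the labels' protocols.

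Gene lines held 65.0% of counts in replicate 1 and 64.9% in replicate 2. Summary lines and an empty line named unknown were left out of totals. CPM was computed on gene lines, and CPM per kilobase with GENCODE M21 basic exons (GRCm38, the union over transcripts). Log2 ratios used edgeR 4.0.16 TMM totals and a prior count of 2, and the coefficient of variation came from an intercept-only edgeR fit. DESeq2 1.42.0 size factors were an alternative. Counting intervals are exact (Clopper-Pearson, 95%) and cover counting error only, since no molecular identifiers are given. There is 1 group, so conditions were not tested and no p-values were computed. The ratio step was tested on simulated data.

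Members and lists were chosen with earlier results of these data known. Named genes are the members by rule (the highest and lowest of each class, cutting subunits, those under a CPM of 1 and those past 1.5-fold), the 4 highest pathway genes, those under a CPM of 1, Nfe2l1 and its regulators, Pomp and deubiquitinases. Other names, such as the ranges of remaining members, interferon genes and the overlapping Tap1, were added after values were seen. Of 32531 symbols, 23155 matched the annotation by symbol and 772 by synonym. Of the listed pathway genes, Paaf1 was not analysed here. Some genes that the rule names are not reported here.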

Additional observations from a re-analysis of the deposited data

Results flagged for a closer look

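Counts outside gene lines lay beyond the comparisons above and are given as values. The line for reads outside any feature held 16.7% of all counts in replicate 1 and 17.02% in replicate 2. The line for multiple alignments held 15.7% in replicate 1 and 15.5% in replicate 2. The line for reads over several genes held 2.61% in replicate 1 and 2.56% in replicate 2. The shares were flagged because they are signal in lines that no comparison used. Of the members, 8 share over 20% of their 50-base stretches with another gene (Psma3, Psma4, Psma5, Psmb3, Psmb5, Psmd2, Psme2 and Psme2b), and 10 overlap an exon on the opposite strand. How many of their reads fell into these lines was not tested.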

How the results depend on the processing

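Of 144 values recomputed under alternatives, 104 stayed within the spread or within 1.5 times the reported count and 40 moved. For most values the spread is the SD of the 2 libraries. An averaged share of an inducible subunit cannot leave that spread when a replicate is left out. Psmb9 at 0.0776% and 1.22% was therefore counted as staying, which says nothing about its stability. A reversed sign was looked for only in the log2 ratios of the members past 1.5-fold, and none reversed. Class medians could change order. With the full annotation the ATPases had 32.1 and the lid 36.3, against 66.6 and 48.1 with the basic set. Alpha subunits had 45.4 and beta subunits 44.2, against 85.3 and 87.7. The members' median of 70.2 CPM was 74.7 without Rn45s and Lars2, 73.8 with whole-symbol members, and 72.0 to 73.4 when a replicate was left out. The regulatory particle over core ratio of 0.494 was 0.548 with longest transcripts, 0.661 with the full annotation and 0.533 to 0.588 without a replicate. The core coefficient of variation of 45.6% was 40.3% without length correction, 43.0% with longest transcripts and 45.9% to 47.4% without a replicate. The averaged length-corrected shares of Psmb8 (0.660%) and Psmb10 (2.13%) were 1.19% and 2.40% without that correction, and that of Psmb9 (0.649%) was 1.09% without it and 0.0776% to 1.22% when a replicate was left out. The median log2 ratio of -0.16 was -0.071 with library totals alone, -0.11 over every member with a count and -0.10 at a mean CPM of at least 1. Over every member with a count, 5 members were past 1.5-fold higher in replicate 1 and 8 in replicate 2, and library totals alone left 1 in replicate 2, where the all-gene median was 0.06. The cause of these moves was not tested. The full annotation, the exclusion of members with copies and the promoter elements other than TGACNNNGC were chosen after seeing the data. No paired analysis was possible because the study has 1 group. Depth limits Psmb8, Psmb9, Psma8 and Psmb11, which had at most 46 counts in a library.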
